A study of Mus musculus with 3 samples.

Results

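Lymphatic endothelial cells of mouse dorsal skin were chosen by their own UMI counts (UMI, a molecular identifier that marks 1 captured transcript). A cell was retained if it had 300 or more detected genes and no more than 10% mitochondrial UMIs, and a retained cell was a member if it held at least 1 UMI of at least 3 of the 6 genes Lyve1, Prox1, Ccl21a, Mmrn1, Flt4 and Reln and no UMI of Ptprc (CD45, leukocytes) or Pdgfra (fibroblasts). The rule gave 904 members among 33511 retained cells, of 36868 cells in the matrices. The study made 3 droplet-based 3′ libraries of full-thickness dorsal skin, 1 per condition, from wild type C57BL/6J mice labelled female and 8 weeks old. The study gives that age where it describes the purchase of the mice, before the irradiation, and the age at sampling is not stated. CON was the control, UV was irradiated on alternate days over 12 weeks with UVA (0.60 mW/cm2) mixed with UVB (3.5 mW/cm2), and Rux received the same irradiation followed each time by an ointment with 1.5% ruxolitinib, an inhibitor of the kinases JAK1 and JAK2. Skin was taken a day after the last exposure. The labels name no vehicle for CON and UV, while the study describes both as vehicle-treated, and the number of mice behind a library is not given in the sources used here. Each condition therefore had 1 library and no test across samples was possible. Intervals are exact 95% intervals that cover counting error only and not the spread between animals.

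Lymphatic endothelial cells line the blind-ended capillaries and the valved collecting vessels that drain fluid, lipid and leukocytes from the skin. Their identity is set by the transcription factor Prox1 and sustained by the VEGF-C receptor VEGFR-3, encoded by Flt4. Capillary cells carry the hyaluronan receptor Lyve1 and release the chemokine Ccl21a, along which dendritic cells enter the vessel, and collecting vessels carry less Lyve1 and hold valves whose cells use Foxc2, Gata2 and Nfatc1. Cytokines that signal through JAK kinases and STAT factors act on these cells as on most others, and they induce feedback inhibitors such as Socs3 and factors such as Irf1.

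Several facts about the libraries bear on every value. The Y-linked genes Ddx3y, Uty, Kdm5d and Eif2s3y were detected in all 3 libraries, with Ddx3y at 119, 113 and 115 CPM (UMIs of a gene scaled to a common total per library) in the members of CON, UV and Rux and at 110, 116 and 122 CPM in the remaining cells, whereas Xist gave 0, 0 and 1 UMI in the members. These counts go against the female label in each of the 3 libraries alike. No barcode was a member in more than 1 library, and the pairs of libraries shared 50 (UV and CON), 40 (Rux and UV) and 28 (Rux and CON) barcodes in all. The members held 8293500, 4743157 and 2233491 UMIs in CON, UV and Rux, with medians of 9972, 10866 and 9155 UMIs per cell, so the precision is lowest in Rux.

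The members carried the broader endothelial programme, which the rule did not use. Pecam1, an adhesion receptor of all endothelium, was at 408, 571 and 627 CPM, and the junctional claudin Cldn5 was at 730, 1031 and 1380 CPM in CON, UV and Rux. The VE-cadherin gene Cdh5 was nearly level at 524, 577 and 541 CPM. Pecam1 had at least 1 UMI in 88.0%, 92.2% and 92.8% of the members. Among cells just outside the rule, with 2 of the 6 markers and neither excluded gene, Pecam1 was detected in 31.9%, 55.4% and 35.3% (138, 74 and 34 cells). Just inside the rule, the 46, 23 and 16 members with exactly 3 markers had Pecam1 in 54.3%, 69.6% and 93.8%, so the edge of the class was least clean in CON. All 6 markers were present in 171, 141 and 75 members. A further 61, 47 and 29 cells had 3 or more markers together with Ptprc or Pdgfra and were left out by the rule.

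Markers of other skin cells were also present, and they moved with the library. The 6 keratinocyte markers (all 6 detected, Krt14 the most abundant at 583, 212 and 57.8 CPM) summed to 1612, 459 and 205 CPM in the members of CON, UV and Rux, against 4708, 2379 and 2725 CPM in the remaining cells, and 178, 30 and 19 members held at least 3 of them. The 4 melanocyte markers summed to 1588, 60.3 and 19.7 CPM, and 12 CON members held 98.0% of the melanocyte UMIs there. Dct was the most abundant, at 908, 36.3 and 10.7 CPM. The 6 fibroblast markers summed to 436, 532 and 351 CPM, with Dcn the most abundant at 186, 245 and 119 CPM and Pdgfra at 0 by the rule. At least 3 of them were held by 236, 147 and 70 members (51.5%, 47.7% and 50.7%). The 7 blood vascular markers summed to 889, 1589 and 1050 CPM, highest in UV, and 149, 120 and 34 members held at least 3 of them. Selp was the most abundant of them in CON and UV and Emcn in Rux. Erythrocyte markers summed to 1.93, 50.4 and 39.4 CPM. Macrophage markers summed to 9.53, 11.4 and 6.72 CPM and T cell markers to at most 2.41 CPM, with Cd3e and Cd3g at 0 in UV and Rux. Scrublet, which scores cells against simulated doublets, placed 60 (13.1%), 27 (8.77%) and 5 (3.62%) of the members among the highest scores, against 9.64%, 9.06% and 8.12% of all retained cells. Leaving out the 21, 11 and 0 members with more than 1% of their UMIs in markers of other cell types, a choice made after the values were seen, is given beside the counts below. Blood vascular markers did not count toward that 1%. They did count where members holding at least 3 markers of 1 other cell type are left out below. The part of these markers in the other results was not tested.

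The share of lymphatic endothelial cells was highest in CON and lowest in Rux. It was 3.80% of retained cells in CON (458 of 12039, interval 3.47 to 4.16%), 2.72% in UV (308 of 11331, 2.43 to 3.03%) and 1.36% in Rux (138 of 10141, 1.14 to 1.61%). The 3 intervals, which cover counting error only and not the spread between animals, did not overlap. Without the members over 1% of other markers the shares were 3.63%, 2.62% and 1.36%. Without members holding at least 3 markers of 1 other cell type they were 1.01% (0.835 to 1.20%), 0.865% (0.703 to 1.05%) and 0.582% (0.443 to 0.750%), in the same order, but the intervals of CON and UV and of UV and Rux then overlapped. Blood vascular endothelial cells, taken as cells with at least 3 of Cdh5, Flt1, Plvap, Emcn, Kdr and Aqp1 and no Prox1, Ptprc or Pdgfra, had another order, with 4.03%, 5.81% and 2.23% of retained cells. Among lymphatic and blood vascular cells together the lymphatic share was 48.6% in CON (45.3 to 51.8%), 31.9% in UV (29.0 to 34.9%) and 37.9% in Rux (32.9 to 43.1%), so the order of UV and Rux turned with the denominator, and their intervals overlapped. A share in a dissociated tissue reads the cells released and captured, and a loss of vessels and a lower yield cannot be told apart.

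**Figure D1:**
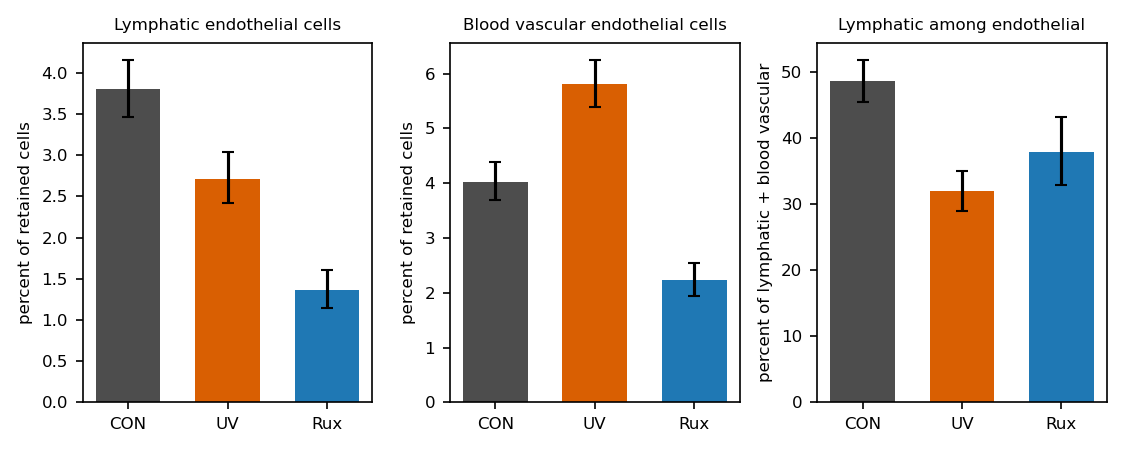
Lymphatic endothelial cells and blood vascular endothelial cells as percent of retained cells, and lymphatic cells as percent of both endothelial classes, in CON, UV and Rux (bars, 1 library each; lines are exact 95% binomial intervals). The lymphatic share of retained cells steps from 3.80% through 2.72% to 1.36%, and the share of endothelial cells is highest in CON at 48.6%.

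The 6 genes of the rule are given as a description. Lyve1 (chromosome 7, 110850607 to 110863239, minus strand, GRCm38) was at 249, 639 and 878 CPM in CON, UV and Rux, the largest ratio between libraries of the 6. Cells with a Lyve1 UMI made up 47.4%, 68.8% and 68.8% of the members, and 30.2%, 49.2% and 53.7% once each member was thinned to 2000 UMIs (14, 13 and 2 shallower members were left out). Fibroblasts, which do not express Lyve1, had a UMI in 0.815%, 0.865% and 0.687% of cells at median depths of 7036.5, 8298 and 10739.5 UMIs. Ccl21a was at 3520, 3372 and 4520 CPM. Its near-identical annotated copies Ccl21b and Ccl21c had no UMI in any member, and reads shared among such copies may be missing from all of them. Prox1 was at 469, 579 and 774 CPM, Flt4 at 222, 358 and 483 CPM, the platelet and endothelial multimerin Mmrn1 at 1057, 1240 and 2121 CPM, and Reln, which encodes the secreted glycoprotein reelin, at 802, 988 and 1729 CPM. All 6 were highest in Rux, and 5 of them were lowest in CON.

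**Figure D2:**
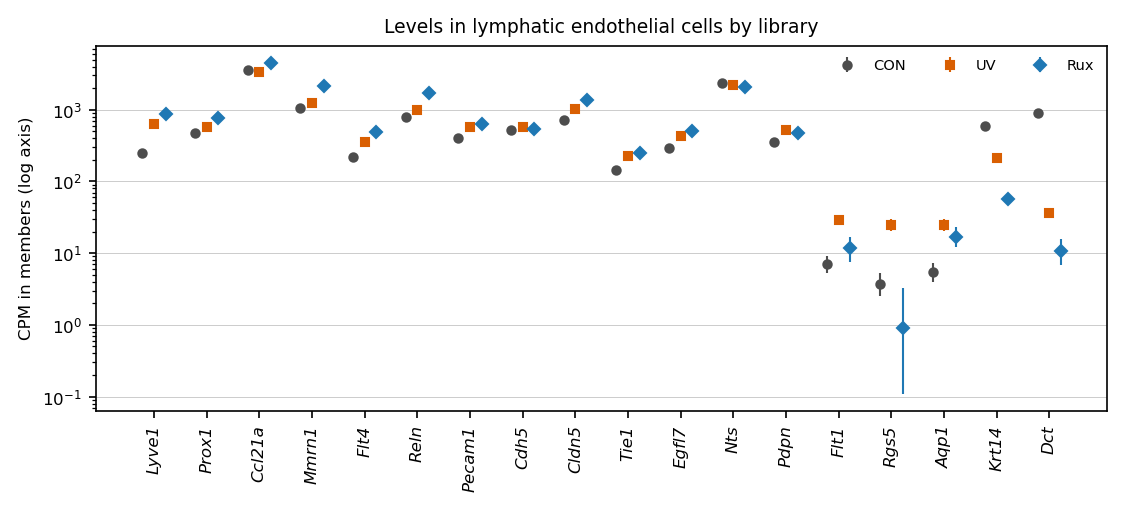
Levels (CPM, log axis) of the 6 genes of the rule, of general endothelial genes, of blood vascular genes and of Krt14 and Dct in the members of each library (points; lines are exact 95% Poisson intervals). In every library Prox1, Pecam1 and Nts lie above 100 CPM, while Flt1, Rgs5 and Aqp1 lie below 30 CPM and Krt14 and Dct are highest in CON.

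A set of genes separated the members from blood vascular cells in every library, which is a description because marker rules fixed both classes, and Flt1 and Aqp1 below were used to choose the blood vascular cells. Nts, the precursor of the peptide neurotensin (chromosome 10, 102481756 to 102490486, minus strand), was at 2337, 2212 and 2081 CPM in the members and at 36.3, 8.78 and 3.16 CPM in blood vascular cells of CON, UV and Rux. It was also nearly level over the 3 libraries. Lcn2, the siderophore-binding lipocalin, was at 1042, 650 and 972 CPM against 18.7, 6.31 and 27.1 CPM. The muscarinic receptor gene Chrm3 was at 290, 408 and 461 CPM and the guidance ligand Sema3d at 380, 412 and 488 CPM. Foxp2, a forkhead transcription factor, was at 213, 344 and 365 CPM. Dtx1, a regulator of Notch signalling, had the largest ratio by the rule for named genes, a log2 ratio of at least 7.56 in each library on 0.5 added UMI. Sh3gl3, Nsg1, Slc38a4 and Glis1 completed the 10 highest, with the lowest log2 ratio of the 10 at 5.05. At the other end, the blood vascular transcription factor Mecom was at 4.10, 5.90 and 0.895 CPM in the members against 605, 657 and 665 CPM in blood vascular cells. Sox17, an arterial factor, was at 0.241, 2.11 and 0 CPM against 141, 120 and 94.3 CPM. The VEGF receptor Flt1, the water channel Aqp1 and Rgs5 were also among the 10 lowest, with Ccdc85a, Tacr1, Tmem252, Entpd1 and Col15a1. In UV, the members' Flt1 was at 29.1 CPM and Rgs5 at 24.7 CPM, both above CON and Rux, and 46.2% of the Rgs5 UMIs came from 1 cell.

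**Figure D3:**
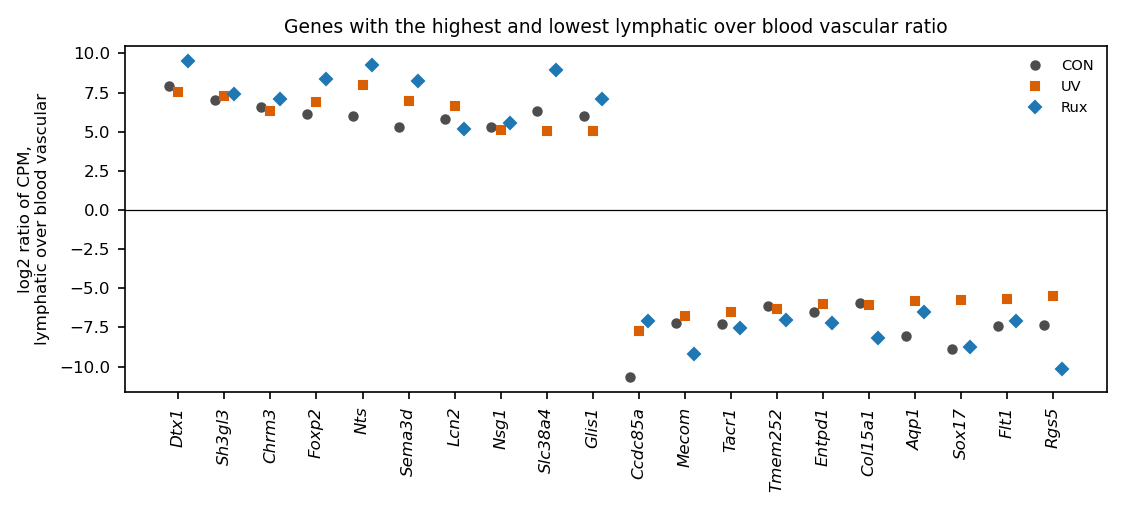
Log2 ratio of CPM in lymphatic over blood vascular endothelial cells for the 10 named genes above and the 10 below 0 (1 point per library, 0.5 UMI added to each sum). The 10 highest lie above 5 and the 10 lowest below −5 in CON, UV and Rux, a contrast that the rule fixed.

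The members varied among themselves along Lyve1. Dividing them by the presence of a Lyve1 UMI, a split chosen after values were seen, gave 217 cells with and 241 without in CON, 212 and 96 in UV, and 95 and 43 in Rux. Of 3612 genes with at least 50 CPM, 7 were at least 2-fold higher in Lyve1-detected cells in all 3 libraries and 1 was at least 2-fold lower, and the 7 include Lyve1 itself. Ccl21a was at 6384 CPM in cells with and 965 CPM in cells without a Lyve1 UMI (CON), 3945 against 1487 CPM (UV) and 5620 against 1334 CPM (Rux). Piezo2, a mechanically gated channel, was at 155 against 16.7 CPM (CON), 109 against 18.1 CPM (UV) and 240 against 15.7 CPM (Rux). Ackr2, the atypical receptor that scavenges inflammatory chemokines, was at 84.9 and 17.3 CPM, 62.7 and 11.8 CPM, and 87.3 and 22.7 CPM. Tppp3, Stmn2 and Etl4 were the others. Clu, which encodes the chaperone clusterin, had the opposite pattern, at 52.2 against 106 CPM (CON), 61.8 against 129 CPM (UV) and 95.8 against 265 CPM (Rux). Foxp2 was lower in Lyve1-detected cells by 0.58, 0.85 and 0.65 on the log2 scale, and Apoe, a lipid carrier, by 0.47, 0.65 and 1.30. Prox1 showed no common direction, with log2 ratios of 0.26, −0.18 and −0.27. Lyve1-detected cells were deeper in CON and UV, at medians of 11736 against 9152 and 12561 against 7361 UMIs, and not in Rux, at 8965 against 9345. Ccl21a and Reln were themselves genes of the rule. Markers of other cells also differed along the split. Krt14 was higher in Lyve1-detected cells, at 710 against 470 CPM (CON), 245 against 103 CPM (UV) and 66.3 against 33.1 CPM (Rux). The melanocyte gene Trpm1 was lower in them in CON, at 28.9 against 290 CPM.

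Valve genes differed in level, and Nfatc1 was detected in 85.4%, 84.4% and 84.1% of the members and in 49.2%, 56.1% and 71.4% of fibroblasts. Itga9 was detected in 61.8%, 71.8% and 71.0% of the members and in 37.2%, 37.9% and 37.0% of fibroblasts, while Foxc2 was in at most 0.489% of fibroblasts. Members with a UMI of at least 3 of Cldn11, Foxc2, Gja4, Nfatc1, Itga9 and Gata2 made up 53.1% (243 cells), 56.8% (175 cells) and 55.8% (77 cells) of the members in CON, UV and Rux. Without members holding at least 3 markers of 1 other cell type the shares were 33.1%, 51.0% and 33.9%, highest in UV. Valve-gene cells were deeper, with medians of 19091, 16716 and 18134 UMIs against 4982, 6265 and 5836 in the other members. At 2000 UMIs per cell the share was 5.41%, 8.47% and 7.35%. Foxc2, the forkhead factor of valve formation, was detected in 41.9%, 27.9% and 35.5% of the members and was at 55.3, 29.5 and 46.6 CPM. Nfatc1 was at 369, 432 and 746 CPM, and Gata2 at 76.1, 82.6 and 108 CPM. The list of 14 valve and collecting vessel genes had a median log2 ratio of 0.05 for UV over CON and −0.08 for Rux over UV, with 7 of 13 and 5 of 13 genes above 0.

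The comparison of UV with CON asks what chronic irradiation changed in these cells. Of 3593 genes averaging 50 CPM or more, 42 (1.17%) were at least 2-fold higher in UV and 62 (1.73%) were at least 2-fold lower. Without the members over 1% of other markers the counts were 31 and 43, with at least 4 of the 6 markers 25 and 40, and with equal weight per cell 25 and 26, so the excess of lower genes was lost with equal weight. Genes are named from those averaging 50 CPM or more whose level in the members was at least that in all other cells, 2146 for UV over CON. The gene most above CON among them was Hmox1 (chromosome 8, 75093621 to 75100589, plus strand), which encodes heme oxygenase 1, an enzyme that degrades heme and is induced by oxidative stress. It was at 50.2, 477 and 65.8 CPM in CON, UV and Rux, a log2 ratio of 3.25 (interval 3.1 to 3.4) for UV over CON. The Hmox1 UMIs of UV were spread over 64.9% of its members, and the most loaded cell held 5.31% of them. In all other retained cells Hmox1 was at 33.5, 208 and 78.7 CPM. Gm47283, a predicted gene (chromosome Y, 90784738 to 90816464, plus strand), was at 277, 864 and 188 CPM in the members. In all other cells it was at 261, 732 and 230 CPM. Mras, a RAS-family GTPase, was at 27.7, 76.7 and 69.4 CPM, with a log2 ratio for UV over CON of 1.47 in the members and 0.23 in all other cells. The matrix gene Thsd4 was at 91.2, 228 and 248 CPM, with 1.32 in the members and 0.20 in the rest. The 50 CPM minimum was on the average of the libraries compared, and Mras, under it in CON, passed through UV. Lsmem1, Adamtsl1, Gm1673 and Tll1 were also among the 10 highest, with log2 ratios of 1.36, 1.33, 1.20 and 1.20.

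The genes most below CON among those were mainly genes of melanocytes. Pmel, Tyrp1, Dct, Ptgds, Trpm1 and Mlana had log2 ratios of −4.96, −4.70, −4.64, −4.47, −4.33 and −4.20. When the members over 1% of other markers were left out, CON Dct was at 22.2 CPM against 36.3 in UV, and all 6 ratios turned to higher in UV. For Elovl4, 96.3% of the CON UMIs were in 1 cell. The remaining 3 of the 10 lowest were Gbp2, Nol10 and Malt1. Gbp2, an interferon-induced GTPase, was at 108, 46.4 and 15.7 CPM in CON, UV and Rux, and its log2 ratio for UV over CON was −1.22 in the members and 0.32 in all other cells. Malt1, a paracaspase of NF-kB signalling, was at 90.9, 43.4 and 85.1 CPM. Dct, Gbp2 and Malt1 lay under the CPM minimum for named genes in UV and passed it through CON.

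Gene lists add the smaller shifts. The minimum for a listed gene was 20 CPM as a mean of the 2 libraries compared, which a gene could pass through the library where it was high, as Ly6c1 did in UV and Cxcl10 in CON. Over all 6237 genes with at least 20 CPM, the median log2 ratio of UV over CON was −0.06, 2658 lay above 0, 83 (1.33%) were at least 2-fold higher and 196 (3.14%) at least 2-fold lower. Among genes of leukocyte trafficking, 14 of 15 were above 0, with a median of 0.48, and Icam2, Selp and Csf1 were at least 2-fold higher. Without the members over 1% of other markers Selp had a log2 ratio of 0.91, under 2-fold, and Icam2 and Csf1 had 1.01 and 1.03. Selp, the P-selectin that captures rolling leukocytes (chromosome 1, 164115264 to 164150026, plus strand), was at 456, 923 and 362 CPM in the members of CON, UV and Rux. In blood vascular cells it was at 2268, 1191 and 1367 CPM, the opposite direction for UV over CON (log2 −0.93, against 1.02 in the members). The growth factor Csf1 of macrophages was at 53.1, 120 and 99.8 CPM, and the scavenger receptor Stab1 at 268, 457 and 527 CPM. Icam1 was level at 1132, 1152 and 1170 CPM. Matrix and anchoring genes had a median of 0.47, with 18 of 22 above 0 and Fbln2, a fibulin, at 39.7, 128 and 134 CPM. Lymphangiogenic receptors and ligands had a median of 0.40, with 13 of 15 above 0. Tek, the angiopoietin receptor TIE2, was at 42.4, 92.6 and 87.8 CPM, and Ramp2 and Calcrl, the subunits of the adrenomedullin receptor, were at 137, 279 and 372 CPM and at 166, 278 and 375 CPM. Kdr was at 187, 294 and 340 CPM. The ligand Vegfc was barely present, at 3.13, 2.11 and 0.448 CPM. Junction genes had a median of 0.28, with 12 of 15 above 0 and none past 2-fold. The trafficking, matrix, lymphangiogenic and junction lists had medians of −0.03, 0.55, 0.12 and 0.16 in blood vascular cells and of 0.45, 0.72, 0.64 and 0.02 in all other cells. Blood vascular markers, Selp among them, also summed highest in the UV members, and their part in these lists was not tested.

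Lipid handling and antioxidant genes were each led by a few members. Fabp4, a fatty acid carrier of capillary endothelium, was at 228, 598 and 956 CPM in CON, UV and Rux, against 7970, 14065 and 14922 CPM in blood vascular cells. Lipoprotein lipase Lpl was at 36.5, 82.6 and 62.7 CPM. Fabp5 was at 407, 120 and 40.3 CPM, but 49.5% of its CON UMIs were in 1 cell. The fatty acid translocase Cd36 was at 7.23, 25.9 and 72.1 CPM. Cd36 lay under the minimum of the lists for UV over CON and is not in the median that follows. The lipid list had a median of 0.33, with 11 of 16 above 0, against 0.43 in all other cells, and −0.00410 without members holding at least 3 markers of 1 other cell type. Car4, a membrane-bound carbonic anhydrase of capillaries, was at 5.18, 61.6 and 135 CPM, and in blood vascular cells at 40.4, 102 and 90.7 CPM. In the antioxidant and NRF2 list 13 of 20 were above 0, with a median of 0.29, and Hmox1, the quinone reductase Nqo1 (22.9, 53.8 and 35.8 CPM) and the sulfiredoxin Srxn1 (13.4, 34.8 and 24.6 CPM) were at least 2-fold higher in UV. Of all 6237 genes with a mean of 20 CPM or more, 2658 were above 0 and 83 (1.33%) were at least 2-fold higher. Srxn1 had under 20 CPM in CON and passed the minimum through UV. The median in all other cells was 0.49, and without members holding at least 3 markers of 1 other cell type that of the members was −0.026.

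Most cell cycle and immediate-early genes compared had log2 ratios below 0 for UV over CON. Of 18 listed cell cycle genes, 8 had a mean of 20 CPM or more, a minimum that a gene could pass through CON alone, as Mcm6 did at 30.3, 12.2 and 8.51 CPM. All 8 were below 0, with a median of −1.03 (−0.59 in all other cells and −0.09 in blood vascular cells for the same genes), and Mki67, Top2a, Mcm6 and Stmn1 were at least 2-fold lower. Of all 6237 genes with a mean of 20 CPM or more, 3579 were below 0 and 196 (3.14%) were at least 2-fold lower. Mki67, the proliferation antigen, was at 81.3, 24.0 and 4.48 CPM in CON, UV and Rux, and without the members over 1% of other markers at 77.5, 22.7 and 4.48 CPM. Among genes under the minimum, Ube2c was at 21.1, 17.7 and 1.34 CPM, and without those members at 15.5, 17.9 and 1.34 CPM, higher in UV than in CON. Stmn1, a microtubule regulator, was at 275, 93.0 and 33.6 CPM. Keratinocyte markers were also highest in the CON members, and their part in these values was not tested. For Rux over UV the 4 cell cycle genes passing the minimum had a median of −0.46. Of 25 immediate-early genes, which respond to dissociation as well as to signals in the tissue, 20 were below 0, with a median of −0.38. Egr3 was at 114, 46.6 and 48.4 CPM, whereas Fos was nearly level between CON and UV at 1984 and 1934 CPM.

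Inflammatory genes were mixed. The NF-kB and inflammation list had a median of 0.00 with 13 of 25 genes above 0. The monocyte chemokines Ccl2 and Ccl7 were at 482, 1345 and 1023 CPM and at 141, 396 and 333 CPM, whereas Cxcl10 was at 42.9, 12.4 and 9.85 CPM. The interferon-stimulated list had a median of −0.14 with 7 of 20 above 0. Ifi27l2a was at 45.0, 141 and 130 CPM and Ly6c1 at 14.2, 42.4 and 9.85 CPM. MHC class I genes had a median of −0.05, and the JAK-STAT list a median of −0.01 with 14 of 29 above 0 and none past 2-fold.

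The comparison of Rux with UV asks what the JAK inhibitor changed in irradiated skin. The UV library is shared by both comparisons, so its error enters each of them. Of 3495 genes with at least 50 CPM, 10 (0.286%) were at least 2-fold higher in Rux and 33 (0.944%) at least 2-fold lower, and without the members over 1% of other markers the counts were 10 and 30. Without members holding at least 3 markers of 1 other cell type, which left 98 UV and 59 Rux members, they were 48 and 90. Over 6088 genes with at least 20 CPM, the median was 0.03, 3272 lay above 0, 41 (0.673%) were at least 2-fold higher and 81 (1.33%) at least 2-fold lower. Against CON, Rux had 113 of 3593 genes (3.15%) at least 2-fold higher and 131 (3.65%) at least 2-fold lower.

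The JAK-STAT list had more genes below than above 0. Of its 29 genes with at least 20 CPM, 18 were below 0 for Rux over UV, with a median of −0.35 and none past 2-fold. The same genes had medians of −0.15 in blood vascular cells and −0.14 in all other cells. Against CON, Socs3, Cish, Irf1, Irf9 and Bcl3 were at least 2-fold lower, with 19 of 30 genes below 0 and a median of −0.31, while 367 of all 6304 genes (5.82%) were at least 2-fold lower at this minimum. Socs3, which binds and inhibits receptor-associated JAKs, was at 1270, 813 and 434 CPM in CON, UV and Rux, so its level in UV lay between the other libraries. Irf1, an interferon-responsive transcription factor, was at 508, 294 and 210 CPM. Cish was at 54.1, 41.7 and 25.1 CPM, Irf9 at 38.2, 27.6 and 16.1 CPM and Bcl3 at 122, 93.0 and 57.8 CPM. Irf9 had under 20 CPM in Rux and passed the minimum through CON. The factor Stat3 was at 547, 520 and 373 CPM and the kinase Jak1 at 601, 606 and 457 CPM, whereas the shared receptor subunit Il6st was at 387, 390 and 455 CPM. Socs1, at 19.7, 16.7 and 7.16 CPM, lay under the minimum of the list.

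The promoters of the list were read in RefSeq (GRCm38.p6), where 29 of the 34 listed genes matched by symbol. The GAS motif TTCNNNGAA, to which STAT dimers bind and which reads the same on both strands, was searched in the 250 bases before each transcription start. It occurred in 3 of the 29 genes (Ifnar2, Irf1 and Socs3) and in 7.02% of all 32851 promoters. The first count is by gene and the second by promoter, and a gene can have more than 1 promoter. The promoters of Socs3 (chr11:117969367-117969616, minus strand) and of Irf1 (chr11:53769764-53770013, plus strand, 1 of 2 listed Irf1 promoters) are shown 5′ to 3′ with that of Ifnar2 (chr16:91372533-91372782, plus strand) because they are the 3 listed genes with the motif, which is in capitals, 154, 90 and 214 bases before the start. Ifnar2, an interferon receptor subunit, was highest in Rux, at 125, 137 and 163 CPM, the opposite order to Socs3 and Irf1. The annotations differ for Socs3, which spans 117966079 to 117970047 in GENCODE, so its stretch lies inside the gene there and not before it. A match of letters is not a bound site.
Socs3: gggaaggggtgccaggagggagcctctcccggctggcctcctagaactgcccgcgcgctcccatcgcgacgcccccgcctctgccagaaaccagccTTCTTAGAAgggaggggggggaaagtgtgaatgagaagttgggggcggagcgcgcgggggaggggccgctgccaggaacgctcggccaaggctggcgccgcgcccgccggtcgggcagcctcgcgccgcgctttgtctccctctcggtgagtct
Irf1: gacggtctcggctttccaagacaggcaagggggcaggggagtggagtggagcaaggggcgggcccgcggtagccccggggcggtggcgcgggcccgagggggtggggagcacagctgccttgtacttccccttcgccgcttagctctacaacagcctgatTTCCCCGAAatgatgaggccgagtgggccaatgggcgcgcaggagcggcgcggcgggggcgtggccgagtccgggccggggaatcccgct
Ifnar2: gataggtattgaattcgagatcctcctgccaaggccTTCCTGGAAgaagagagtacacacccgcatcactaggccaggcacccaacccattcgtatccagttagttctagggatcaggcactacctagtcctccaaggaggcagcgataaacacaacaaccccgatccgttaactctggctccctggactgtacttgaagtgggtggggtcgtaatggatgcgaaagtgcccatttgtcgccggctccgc

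Interferon-stimulated and inflammatory genes included larger differences. Of 20 interferon-stimulated genes, 14 were below 0 with a median of −0.11, against −0.35 in blood vascular cells and −0.37 in all other cells. Ly6a, Ly6c1, Gbp2, Iigp1 and Rnf213 were at least 2-fold lower in Rux, where 1.33% of all genes were. Ly6a, Ly6c1 and Gbp2 had under 20 CPM in Rux and passed the minimum through UV. Iigp1, an immunity-related GTPase, was at 178, 146 and 70.7 CPM in the members and at 855, 690 and 93.4 CPM in blood vascular cells. In the NF-kB and inflammation list 21 of 24 genes were below 0 for Rux over UV, with a median of −0.33, against 0.27 in blood vascular cells and 0.25 in all other cells for the same genes. Il6, the cytokine (chromosome 5, 30013114 to 30019981, plus strand), was at 146, 141 and 15.2 CPM in CON, UV and Rux, a log2 ratio of −3.19 (interval −3.75 to −2.71) for Rux over UV on 667 and 34 UMIs. In blood vascular cells Il6 was at 1024, 804 and 737 CPM and in fibroblasts at 618, 873 and 393 CPM. Selp, Cxcl2 (307, 519 and 228 CPM) and Il1r1 were the others past 2-fold. Il1r1, an interleukin 1 receptor, was at 19.8, 28.9 and 13.0 CPM and, like Il6, passed the minimum through UV. Without the members over 1% of other markers its log2 ratio was −0.92, under 2-fold. For Selp, 26.5% of the Rux UMIs came from 1 cell. Ccl2 and Ccl7 were above CON in Rux, by 1.08 and 1.24 on the log2 scale.

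The list of metallothioneins and zinc transporters had the lowest median for Rux over UV, −2.18 over 3 of its 6 genes, which is the value of Mt2, and −0.58 over 5 genes for UV over CON. The zinc importer Slc39a14, the third gene, had −0.22 for Rux over UV. Mt1 (chromosome 8, 94179082 to 94180327, plus strand) and Mt2 (chromosome 8, 94172664 to 94173568, plus strand) encode small proteins that bind zinc and copper. Mt1 was at 1488, 823 and 177 CPM and Mt2 at 767, 513 and 113 CPM in CON, UV and Rux, log2 ratios of −2.21 (−2.37 to −2.06) and −2.18 (−2.38 to −2.0) for Rux over UV. In all other cells Mt1 was at 3552, 3167 and 2167 CPM and Mt2 at 2039, 2134 and 1321 CPM, a smaller difference. The antioxidant list had a median of −0.29 with 15 of 22 genes below 0, led by Hmox1 (log2 −2.85, against −1.40 in all other cells) and the thioredoxin reductase Txnrd1 (272, 336 and 153 CPM).

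Other genes in the 10 lowest were Gm47283, Arid5a, Yars, Hbegf, Nav2, Nupr1, Neo1 and Sphk1. Hbegf, a ligand of the EGF receptor, was at 284, 340 and 145 CPM, with 26.5% of the Rux UMIs in 1 cell, and 45.7% of the Rux UMIs of the netrin receptor Neo1 came from 1 cell. Nupr1, a stress-induced nuclear protein, was at 284, 479 and 210 CPM, with a log2 ratio of −1.18 in the members and −0.02 in all other cells. Sphk1, which makes the lymphocyte egress signal sphingosine 1-phosphate, was at 76.3, 78.9 and 37.2 CPM, while its exporter Spns2 was at 95.5, 144 and 162 CPM. Arid5a, which stabilizes inflammatory transcripts such as Il6, was at 92.2, 91.7 and 37.6 CPM. Arid5a, Sphk1, Yars and Neo1 lay under the CPM minimum for named genes in Rux and passed it through UV.

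Among the genes higher in Rux, Angptl4, a secreted inhibitor of lipoprotein lipase, was at 54.9, 78.2 and 171 CPM, with a log2 ratio of 1.13 (0.92 to 1.34) for Rux over UV, and Car4 had 1.13 (0.89 to 1.37) in the members against −0.95 in all other cells. Piezo2 was at 81.8, 88.1 and 183 CPM, with 1.05 in the members and −0.04 in the rest. The remaining 7 were Hoxd9, Aph1b, Wdr17, Kcnt2, Fam102b, Cacna1e and Malt1, with log2 ratios from 0.97 (Malt1) to 1.13 (Hoxd9). The CPM minimum for named genes was on the average of the libraries compared, and Malt1, under it in UV, passed through Rux. Without the members over 1% of other markers, Hoxd9, Kcnt2 and Cacna1e were also under it in UV, at 42.1, 46.2 and 35.2 CPM. Their levels in Rux were 91.3, 96.7 and 68.5 CPM. Of the lymphatic transcription factors 11 of 14 were above 0, with a median of 0.32, against 0.00 for UV over CON, but the Rux over UV median was −0.078 without members holding at least 3 markers of 1 other cell type. Nr2f2, which cooperates with Prox1, was at 285, 310 and 543 CPM, and the shear-responsive factor Klf2 was at 557, 555 and 787 CPM. Cd36 was the member of the lipid list past 2-fold in this direction, and its level in Rux came from 161 UMIs. The lists of leukocyte trafficking, junctions, matrix, TGF-beta and immediate-early genes had medians between −0.05 and 0.10, the lymphangiogenic list 0.12 and the lipid list 0.02.

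**Figure D4:**
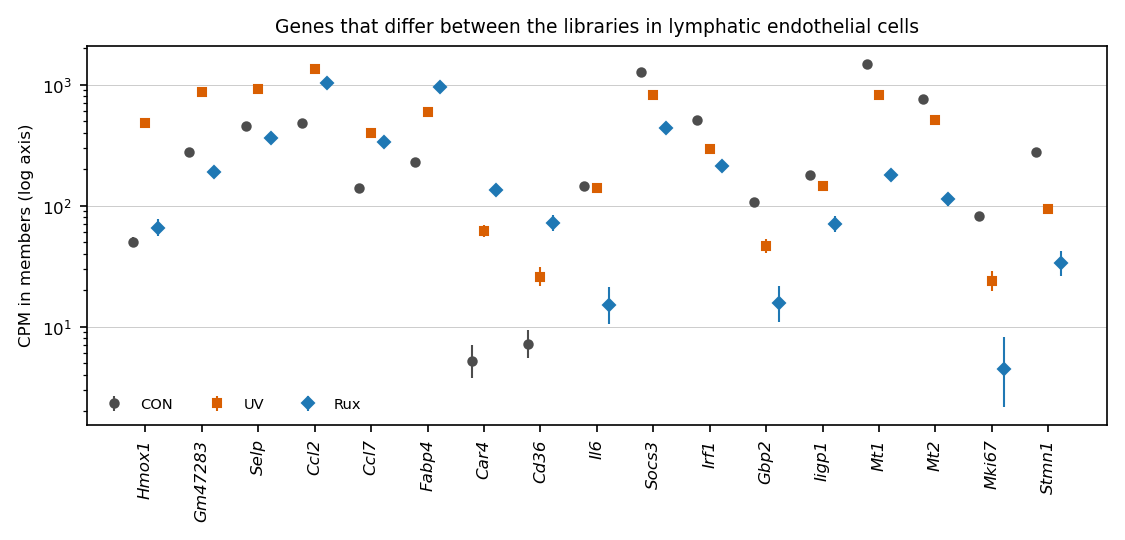
Levels (CPM, log axis) of named genes in the lymphatic endothelial cells of CON, UV and Rux (1 library each; lines are exact 95% Poisson intervals). Hmox1, Gm47283 and Selp peak in UV, Fabp4, Car4 and Cd36 are highest in Rux, and Il6, Socs3, Irf1, Gbp2, Iigp1, Mt1, Mt2, Mki67 and Stmn1 are lowest in Rux.

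**Figure D5:**
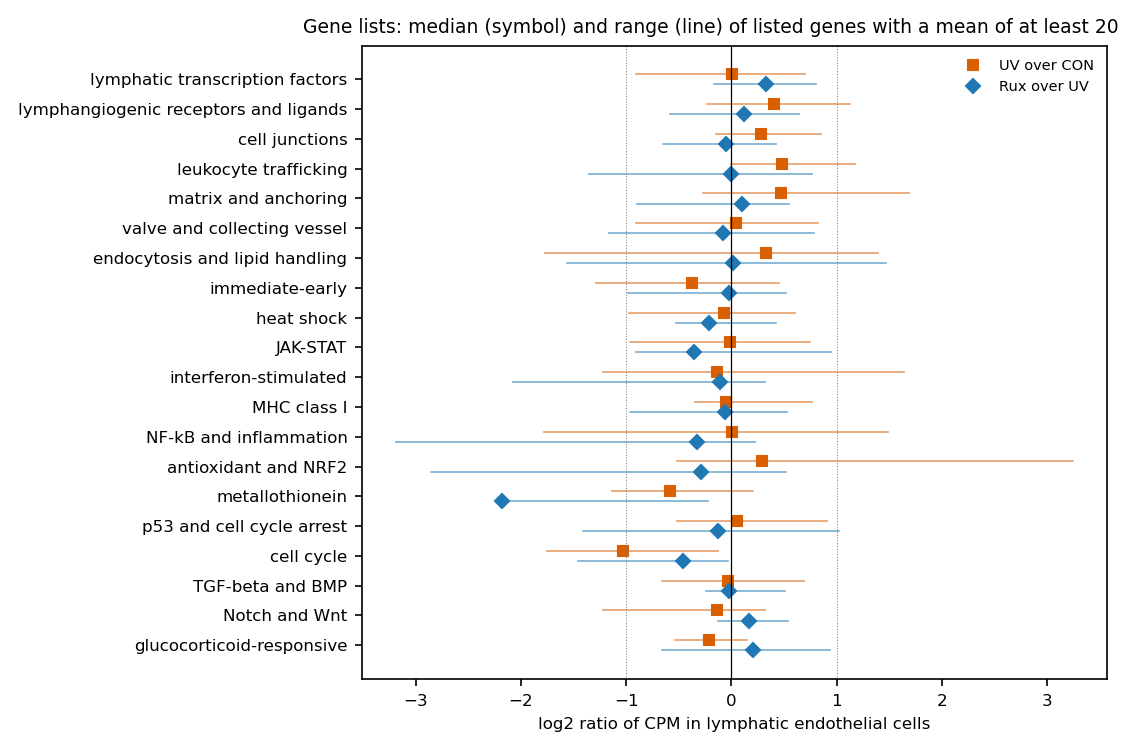
Median (symbol) and range (line) of the log2 ratio of CPM over listed genes averaging 20 CPM or more in the members, for UV over CON and Rux over UV; dotted lines mark 2-fold. Cell cycle is lowest for UV over CON at −1.03, metallothionein (3 genes) is lowest for Rux over UV at −2.18, and leukocyte trafficking is highest for UV over CON at 0.48.

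For UV over CON and Rux over UV, heat shock genes had medians of −0.07 and −0.21, MHC class I genes −0.05 and −0.06, p53 and arrest genes 0.05 and −0.12, TGF-beta and BMP genes −0.03 and −0.02, Notch and Wnt genes −0.13 and 0.17, and glucocorticoid-responsive genes −0.21 and 0.20. Of 7 MHC class II genes, 1 passed the minimum, with −0.34 and 0.26. Both directions turned with equal weight per cell, to 0.092 and −0.134. They also turned without members holding at least 3 markers of 1 other cell type, to 0.109 and −0.074.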

How the data were processed

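Dissociated dorsal skin was captured with 10x 3′ chemistry, 1 library for each of CON, UV and Rux. The authors deposited filtered matrices of UMI counts per gene and cell, not normalized. The submitters' processing notes name Cell Ranger 6.1.2, Seurat 5.3.0 and mm10, whereas the matrix headers name Cell Ranger 7.0.0. Whether intronic reads were counted is not given in the sources used here. It changes levels most for long genes.

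Cells were retained at 300 or more genes and no more than 10% mitochondrial UMIs, which left 12039, 11331 and 10141 cells in CON, UV and Rux. Members were chosen by the marker rule. The members and gene lists were chosen with earlier results of these data known. UMIs were summed over the members of a library, divided by their total (CPM) and compared as log2 ratios with 0.5 UMI added to each sum. Levels carry exact Poisson, shares exact Clopper-Pearson and ratios exact conditional binomial intervals at 95%, which cover counting error only. With 1 library per condition no test was run and "called" means at least 2-fold. For UV over CON and Rux over UV, the text names the 10 highest and 10 lowest ratios, taken from genes averaging 50 CPM or more with 50 or more UMIs whose level in the members was at least that in all other cells. It also names the 10 highest and lowest ratios of members over blood vascular cells, and genes of the lists. Some genes that the rule names are not reported here. List medians use genes with at least 20 CPM. Members were kept whether or not Scrublet (scanpy 1.11.5) scored them as doublets. Alternatives changed the cell filter, the marker rule, doublets, weighting, scaling and the CPM minimum. One that removes members with over 1% of UMIs in markers of other cell types, blood vascular markers not counted, was chosen after seeing the data. Ratios and intervals were checked on simulated independent Poisson counts, the model that the intervals assume. That check does not cover UMIs gathered in a few cells or the spread between animals. Python 3.11.15, NumPy 2.4.6, SciPy 1.17.1 and pandas 2.3.3 were used, and gene positions came from GENCODE on GRCm38.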

Additional observations from a re-analysis of the deposited data

Results flagged for a closer look

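Named genes and listed genes past 2-fold, for UV over CON and Rux over UV, were screened for opposite directions in lymphatic and blood vascular endothelial cells. The screen asked for at least 2-fold in lymphatic cells, a smaller minimum in blood vascular cells, and counting intervals that excluded no change in both. It was passed by 5 genes, and genes that differed in direction outside these limits were not counted. The difference was not tested, since each condition had 1 library. For UV over CON, Selp had 1.02 in lymphatic and −0.93 in blood vascular cells, and 0.91 in lymphatic cells without the members over 1% of other markers. Fabp5 had −1.77 and 1.34, and 49.5% of its UMIs in the CON lymphatic cells came from 1 cell. Elovl4 had −6.38 and 3.99, and 96.3% of its UMIs in the CON lymphatic cells came from 1 cell. For Rux over UV, Ly6c1, a surface protein of capillary endothelium and leukocytes, had −2.08 and 0.58. Cxcl2, a neutrophil chemokine, had −1.19 and 0.73.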

How the results depend on the processing

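The order of the shares of retained cells, CON above UV above Rux, was the same under each alternative with that denominator. The shares were 3.42% in CON with at least 4 markers, 4.31%, 3.13% and 1.65% without the excluded genes, 1.01%, 0.865% and 0.582% without members holding at least 3 markers of 1 other cell type (here the stricter marker rule), and 3.25% in CON at 2000 UMIs per cell. Among endothelial cells they were 48.6%, 31.9% and 37.9%. Valve-gene cells made up 33.1%, 51.0% and 33.9% of members under the stricter marker rule and 5.41%, 8.47% and 7.35% after thinning. Genes at least 2-fold higher and lower in UV than in CON numbered 25 and 40 with at least 4 markers, 25 and 26 with equal weight per cell, 23 and 22 at a minimum of 100 CPM, and 83 and 196 at 20 CPM. The lower count was 38 without doublets and 35 under the stricter marker rule. For Rux over UV the counts were 48 and 90 under the stricter marker rule, 4 and 17 at 100 CPM, and 41 and 81 at 20 CPM. For Rux over CON they were 64 and 51 at 100 CPM and 235 and 367 at 20 CPM, and 55 genes were higher with equal weight. The minimum changes the number of genes compared, and the stricter marker rule leaves 121, 98 and 59 members. The cause of the other shifts was not tested.

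Under the stricter marker rule, the UV over CON medians of the lipid and antioxidant lists were −0.00410 and −0.026, and the Rux over UV median of lymphatic transcription factors was −0.078. The 1 MHC class II gene had 0.109 and −0.074 there, and 0.092 and −0.134 with equal weight. Of 42 list medians, 9 further moved by over 0.25 under the stricter marker rule, 4 with equal weight, 3 without the excluded genes, 2 at a minimum of 10 UMIs and 1 with at least 4 markers. Of 38 ratios of named genes, 24 moved beyond their counting interval and 6 reversed under the stricter marker rule, 22 moved with equal weight, and 9 each with at least 4 markers and without doublets. Of 18 levels of the genes of the rule, 18 moved with equal weight, 18 with median-of-ratios scaling and 17 under the stricter marker rule. Without doublets 14 moved, without the excluded genes 12, and with at least 4 markers 10. For UV over CON, under the stricter marker rule and without members over 1%, Pmel had 0.31 and 0.65, Tyrp1 1.18 and 1.05, Dct 0.40 and 0.71, Ptgds 1.66 and 1.51, Trpm1 1.80 and 1.57, and Mlana 0.0796 and 1.03.

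No paired analysis was possible because each group has 1 library, so there was none to leave out. Depth limits Rux most, where 138 members held 2233491 UMIs.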
